A study of Caenorhabditis elegans with 22 samples.

Results

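The antimicrobial peptide genes of Caenorhabditis elegans were examined in RNA of whole adults that had been exposed to serotonin or to loxapine, a tricyclic antipsychotic drug. The members were picked by gene name alone. They are all genes of the cnc, abf, fip and fipr families in the deposited count table together with nlp-24 to nlp-34, and they number 64 of the 19598 genes in the table. There were 11 cnc genes, 11 nlp genes, 6 abf genes and 36 fip and fipr genes.

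The strains were the wild-type N2 and mutants carrying ser-5(vq1) or ser-7(vq2), alleles of genes for serotonin receptors. For N2 there were 5 DMSO libraries (replicate numbers 2 to 6), 3 serotonin libraries and 3 loxapine libraries. For ser-7 there were 3 DMSO and 3 serotonin libraries, and for ser-5 there were 3 DMSO and 2 loxapine libraries. In all groups the animals were grown from synchronised L1 larvae in liquid culture on X-ray-killed OP50 bacteria at 6 mg/ml. In all groups the L4 larvae received 0.12 mM FUDR, an inhibitor of DNA synthesis that blocks the production of progeny. Serotonin (5 mM, dissolved in water) or loxapine (50 µM, dissolved in DMSO, with DMSO below 0.3%) was given from day 1 of adulthood, and the animals were harvested 72 h later. The untreated group was DMSO for both compounds, so in the serotonin comparisons the solvent and the compound cannot be told apart. Separate cultures are not stated for the replicates, and p-values therefore measure the spread between these libraries, which may be technical.

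C. elegans has no circulating immune cells, and its epidermis, pharynx and intestine make small secreted peptides that act against microbes. The nlp genes of the set, which are named for their likeness to neuropeptides, and the cnc genes (caenacins) encode short glycine-rich peptides. Several of these genes are expressed in the epidermis and induced by infection with the fungus Drechmeria coniospora, and nlp-29 is also induced by wounding. The nlp-29 group is driven from the receptor DCAR-1 through a G protein, protein kinase C, TIR-1 and the p38 MAP kinase PMK-1 to the STAT-like factor STA-2, whereas cnc-2 responds to the BMP-like ligand DBL-1. The abf genes encode defensin-like antibacterial factors, and the fip and fipr genes were named as fungus-induced proteins and their relatives.

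The members were unevenly spread over the genome, with 36 of the 64 on chromosome V, 10 on III, 7 on I, 6 on X and 5 on IV. Positions are those of the Ensembl annotation of WBcel235, joined by gene identifier. The cluster around nlp-29 spans V:3978825-3989770 and holds, in order, nlp-34, nlp-31, nlp-30, nlp-29, nlp-28 and nlp-27. The cluster around cnc-2 spans V:1442342-1450183 and holds cnc-11, cnc-1, cnc-5, cnc-4, cnc-3 and cnc-2. Neither cluster contains another gene of the count table, and all 12 genes have 2 exons in the annotation. A smaller mixed cluster at X:10302741-10306951 holds fip-5, fipr-21 and cnc-8. The annotated exons of fip-2, fip-4, fipr-3, nlp-24 and nlp-26 overlap those of another counted gene. Whether the counting used strand, and how it treated reads shared by near-identical family members, is not given in the sources used here, so values of these 5 genes and of close paralogs are uncertain.

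Total counts per library lay between 25652111 and 39765014, and levels are given as CPM, the usual depth-normalised count, here relative to the TMM-scaled library total. Of the 64 members, 45 passed the filter on low counts and were tested (9 cnc, 11 nlp, 5 abf and 20 fip and fipr genes), so the counts below describe these 45 and not the whole set. The 19 members that were not tested had at most 15 counts in any library, and fipr-25 had counts in only 2 libraries. The libraries analysed carry numbers in 3 series (1 and 3 to 8, 13 to 20, and 25 to 31), and each series holds libraries of every group except that ser-5 with loxapine is missing from the last. Replicates 2 and 5 of N2 with DMSO, and likewise replicates 3 and 6, differed by much less than other replicates of a group (chi-square per degree of freedom 4.94 and 3.86, against 11.9 to 140 for all other pairs within a group). They were kept as separate libraries, and the counts of calls with each pair summed are given beside the results. The labelled genotypes were checked on the targeted genes: ser-7 stood at 2.50 ± 0.335 CPM (SD, n = 5) in N2 with DMSO and at most at 0.0326 CPM in the 3 ser-7 libraries with DMSO. In the ser-5 strain with DMSO, ser-5 RNA stood at 0.289 ± 0.132 CPM (n = 3) against 1.82 ± 0.379 (n = 5).

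Relative to exon length, some nlp and cnc genes had the highest levels, whereas nlp-30 of the nlp-29 cluster stood at 4.04 CPM per kilobase. The mean over all 22 libraries, per kilobase of annotated exon, was 302 CPM for nlp-29, 202 for nlp-31, 143 for nlp-27, 140 for cnc-7, 124 for cnc-2, 106 for cnc-4 and 101 for nlp-33. Among the abf genes the highest value on this scale was 30.3 CPM per kilobase, for abf-2. Among fip and fipr genes it was 92.1, for fip-2. Summed over all 64 members, the level was 808 ± 99.9 CPM (SD, n = 5) in N2 with DMSO, 765 ± 10.2 (n = 3) in ser-7 with DMSO and 803 ± 25.0 (n = 3) in ser-5 with DMSO. The sum was 496 ± 33.2 CPM (n = 3) in N2 with serotonin and 595 ± 86.9 (n = 3) in N2 with loxapine. It was 886 ± 111 CPM (n = 3) in ser-7 with serotonin and 844 ± 95.9 (n = 2) in ser-5 with loxapine. The N2 libraries with serotonin (460 to 526 CPM) and with loxapine (520 to 690 CPM) thus lay below all other libraries (691 to 1009 CPM), although the highest loxapine library nearly reached the lowest N2 control. In these bulk samples, fewer cells of a type and less RNA per cell cannot be told apart.

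**Figure D1:**
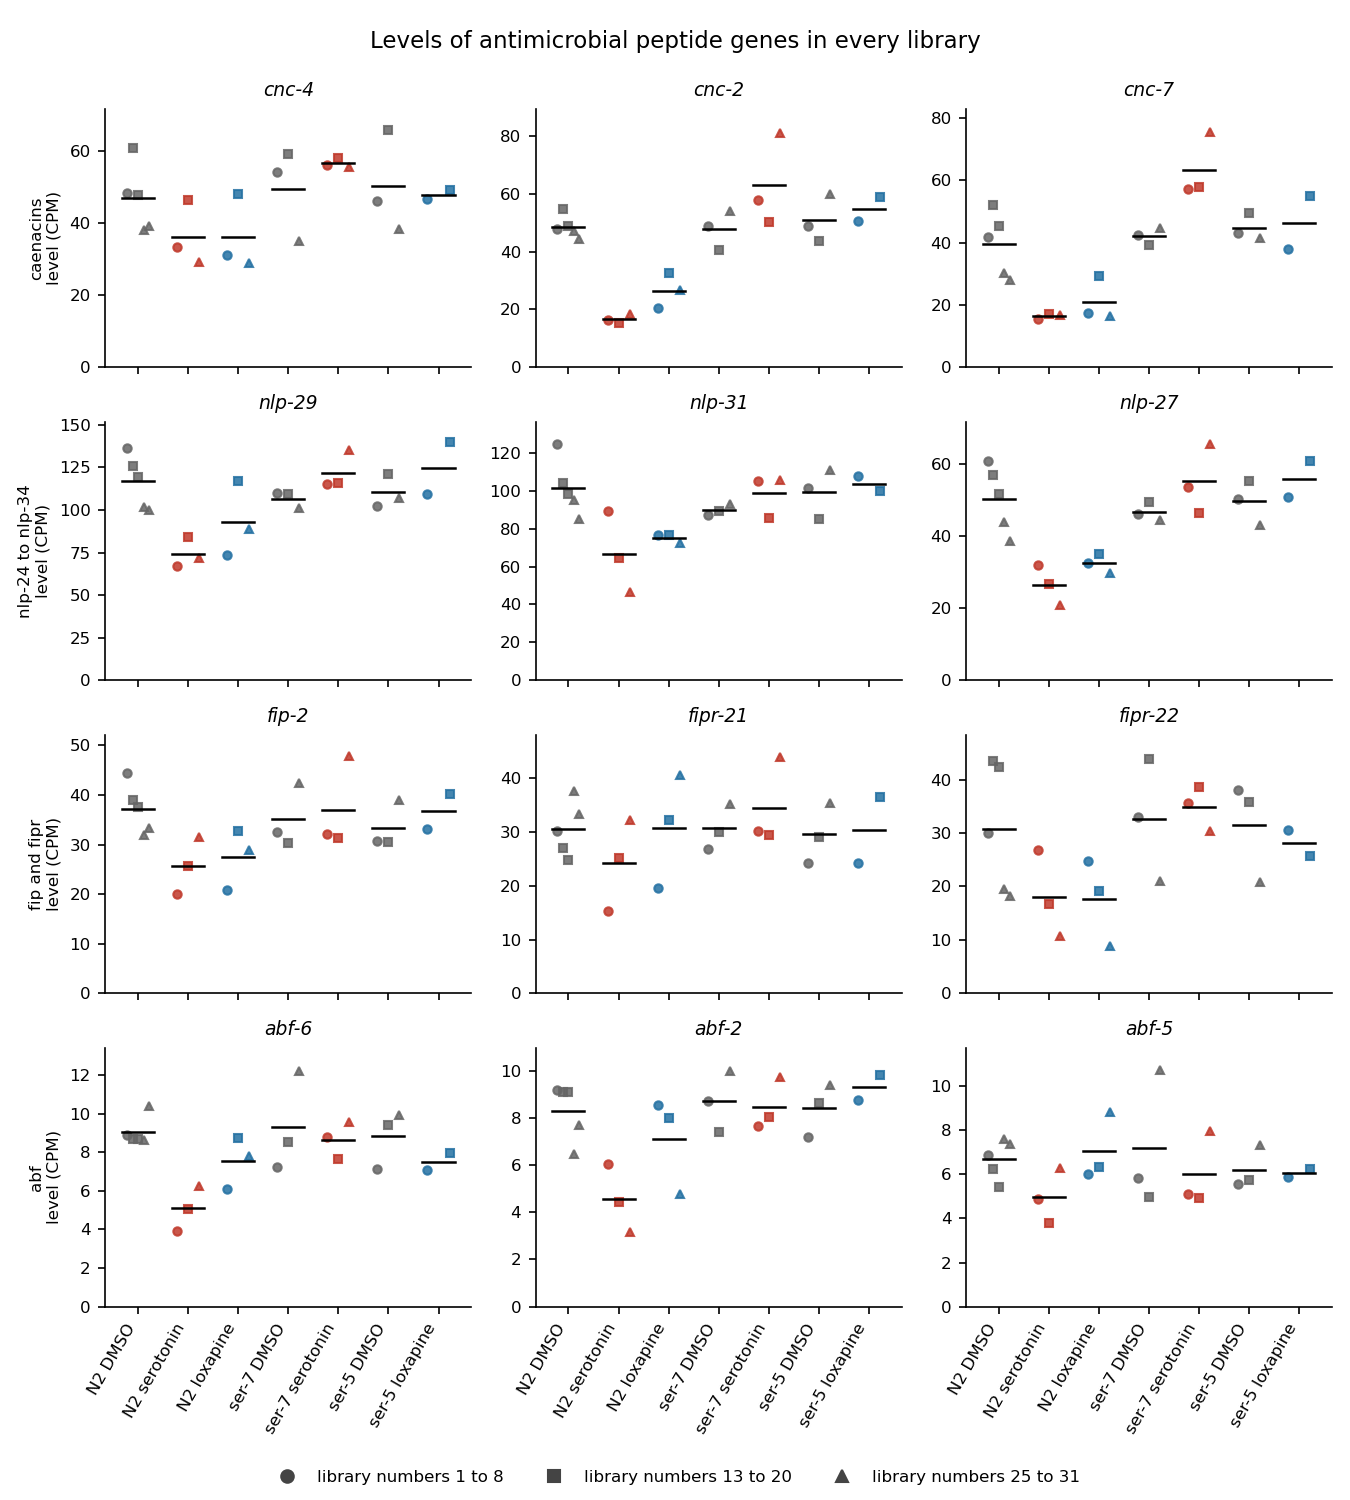
Levels of the 3 most abundant members of each family in every library. The y axes give CPM and start at 0, points are libraries, bars are group means, and the marker shape gives the series of library numbers. For cnc-2 all 3 serotonin libraries of N2 (15.3 to 18.4 CPM) lie under all 5 controls (44.5 to 55.0 CPM), whereas ser-7 with serotonin reaches 50.3 to 81.3 CPM.

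In N2, serotonin lowered 21 of the 45 tested members and raised none (edgeR quasi-likelihood test, Benjamini-Hochberg adjustment over all 16431 tested genes, threshold 0.05). Over all tested genes, 37.1% were called in the same comparison, 16.8% lower and 20.4% higher. By family, 6 of 9 cnc genes, 6 of 11 nlp genes, 2 of 5 abf genes and 7 of 20 fip and fipr genes were lower. The fitted log2 fold change was negative for all 45, with a median of -0.77 against -0.12 over all tested genes. In 18 members all 3 serotonin libraries lay below all 5 controls, and in none did they lie above, whereas 15.5% of all tested genes lay wholly below and 17.1% wholly above. Within the 3 series of library numbers the median log2 ratio was -0.93, -0.67 and -0.59, and 42 of the 45 members were negative in every series. With the library series as a block 29 members were called, among them all 21, against 46.6% of all tested genes. With the near-duplicate controls summed 15 were called, against 29.5% of all tested genes, and cnc-6, cnc-8, fip-6, fipr-24 and nlp-30 were among those that no longer passed (adjusted p between 0.0503 and 0.0726). When N2 with DMSO was reduced to replicates 2 and 3, the number of members called was 11, against 21.4% of all tested genes. The calls of abf-2, abf-6, cnc-2, cnc-3, cnc-7, fipr-2, fipr-3, nlp-24, nlp-27, nlp-28 and nlp-29 held in all 16 alternatives run. Calls were lost in 10 of 16 alternatives for cnc-8 and for nlp-30, in 9 of 13 for fipr-9, and in 7 of 16 for cnc-6 and for fip-2.

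Among the caenacins, cnc-2 showed the clearest fall. Its level in N2 with DMSO was 49.1, 44.5, 47.8, 55.0 and 47.0 CPM in replicates 2 to 6, and with serotonin it was 16.2, 15.3 and 18.4 CPM in replicates 1 to 3. The groups were far apart, and the fitted log2 fold change was -1.55 ± 0.17 (SE; adjusted p = 6.04e-06). The level of cnc-7 was 45.4, 28.0, 41.7, 52.0 and 30.3 CPM with DMSO and 15.5, 17.2 and 16.7 CPM with serotonin. Its serotonin libraries were close together and below every control, with a log2 fold change of -1.26 ± 0.21 (adjusted p = 0.000166). Falls in cnc-3 were smaller but as regular, from 30.0, 28.3, 33.1, 32.2 and 27.5 CPM to 21.1, 18.4 and 16.8 CPM. This was a log2 fold change of -0.69 ± 0.11 (adjusted p = 9.05e-05), again without overlap.

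The other tested caenacins had higher adjusted p-values with serotonin than cnc-2, cnc-3 and cnc-7. For cnc-8 the levels were 22.7, 26.9, 30.1, 21.5 and 28.1 CPM with DMSO and 9.86, 16.5 and 23.1 CPM with serotonin, so that the groups overlapped. Its log2 fold change of -0.65 ± 0.24 passed the threshold (adjusted p = 0.0413), but not with the replicate tag as a block (adjusted p = 0.0665). The less abundant cnc-6 (-1.47 ± 0.52, adjusted p = 0.0354) and cnc-11 (-1.32 ± 0.42, adjusted p = 0.017) also fell. With a mean of 46.9 ± 9.10 CPM in the 5 controls, near that of cnc-2 (48.7 ± 3.90), cnc-4 did not pass the test. It measured 47.9, 39.1, 48.4, 60.7 and 38.2 CPM with DMSO and 33.3, 46.4 and 29.1 CPM with serotonin, with a log2 fold change of -0.37 ± 0.21 (adjusted p = 0.187). For cnc-10 (-0.23 ± 0.14, adjusted p = 0.201) and cnc-1 (-0.61 ± 0.45, adjusted p = 0.304) no difference was detected either.

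In the nlp group, 5 of the 6 genes of the nlp-29 cluster fell with serotonin. The level of nlp-29, the best known reporter gene of epidermal infection and wounding, was 119.5, 99.9, 136, 126 and 102 CPM with DMSO and 67.2, 83.8 and 71.7 CPM with serotonin. All serotonin libraries were below all controls, with a log2 fold change of -0.65 ± 0.14 (adjusted p = 0.000897). Its neighbour nlp-27 went from 51.9, 38.7, 60.8, 56.9 and 43.9 CPM to 31.96, 26.8 and 20.9 CPM, a log2 fold change of -0.92 ± 0.15 (adjusted p = 0.000169). For nlp-28 the levels were 34.4, 31.3, 37.8, 32.9 and 31.1 CPM with DMSO and 15.2, 24.1 and 15.9 CPM with serotonin (-0.87 ± 0.18, adjusted p = 0.000716). Both genes thus separated the groups without overlap.

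The levels of nlp-31 were 98.1, 85.05, 125, 104 and 95.2 CPM with DMSO and 89.1, 64.6 and 46.8 CPM with serotonin. One serotonin library reached into the range of the controls, and the log2 fold change was -0.60 ± 0.15 (adjusted p = 0.00401). The fall of nlp-30 (-0.67 ± 0.25, adjusted p = 0.0393) did not pass with the replicate tag as a block (adjusted p = 0.206). At the edge of the cluster, nlp-34 measured 22.04, 13.8, 22.3, 25.1 and 12.5 CPM with DMSO and 20.3, 8.74 and 5.79 CPM with serotonin. Its groups overlapped and the log2 fold change of -0.71 ± 0.32 missed the threshold (adjusted p = 0.0909), which it passed with the block (-0.87, adjusted p = 0.0329). Outside the cluster nlp-24 fell (-0.81 ± 0.16, adjusted p = 0.000511). The level of nlp-33 was 29.1, 38.0, 48.0, 40.2 and 44.8 CPM with DMSO and 24.9, 40.5 and 32.3 CPM with serotonin. For nlp-33 (-0.30 ± 0.28, adjusted p = 0.432) the libraries of both groups were interspersed.

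Of the abf genes, abf-2 and abf-6 fell with serotonin. The level of abf-2, whose product kills bacteria in vitro, was 9.11, 7.70, 9.20, 9.11 and 6.46 CPM with DMSO and 6.04, 4.45 and 3.17 CPM with serotonin (-0.86 ± 0.21, adjusted p = 0.00307). For abf-6 the values were 8.67, 10.4, 8.91, 8.68 and 8.63 CPM with DMSO and 3.94, 5.05 and 6.26 CPM with serotonin (-0.84 ± 0.19, adjusted p = 0.00157). Neither gene showed overlap between the groups. The neighbour of abf-6 on the X chromosome, abf-5, measured 5.45, 7.38, 6.87, 6.26 and 7.63 CPM against 4.87, 3.78 and 6.30 CPM and did not pass (-0.43 ± 0.24, adjusted p = 0.164). The remaining abf-1, abf-3 and abf-4 stayed below 0.5 CPM in all libraries.

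Among the fip and fipr genes the test called fip-2, fip-6, fipr-2, fipr-3, fipr-9, fipr-13 and fipr-24 lower with serotonin. The most abundant of them, fip-2, measured 37.6, 33.3, 44.5, 38.9 and 31.95 CPM with DMSO and 20.0, 25.7 and 31.4 CPM with serotonin (-0.54 ± 0.18, adjusted p = 0.0255). For fip-6 the values were 16.1, 13.8, 15.0, 17.3 and 13.6 CPM against 6.30, 12.01 and 9.11 CPM (-0.73 ± 0.24, adjusted p = 0.0206). In both genes the serotonin libraries lay below the controls, in fip-2 by a narrow margin. Both passed with the library series as a block, which keeps all controls, but not with the replicate tag as a block (adjusted p = 0.0734 and 0.134). The log2 fold change was -2.31 ± 0.51 for fipr-3 (adjusted p = 0.00132), -1.31 ± 0.25 for fipr-2 (adjusted p = 0.000462), -0.90 ± 0.25 for fipr-13 (adjusted p = 0.00697) and -1.66 ± 0.65 for fipr-9 (adjusted p = 0.0493; 0.0602 with the block). Counts of fipr-3 were low, with at most 48 in a library and none in 1 of the serotonin libraries, and fipr-9 had at most 12.

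In fipr-22 and fipr-24 the controls themselves differed between the series of library numbers. The levels of fipr-24 in N2 with DMSO were 31.4 and 35.1 CPM in replicates 2 and 5, 11.1 and 9.77 CPM in replicates 3 and 6, and 20.1 CPM in replicate 4. With serotonin they were 11.3, 11.3 and 3.56 CPM, so the ranges overlapped, but each serotonin library lay below the controls of its own series. The pooled log2 fold change was -1.29 ± 0.47 (adjusted p = 0.0372), and within the 3 series the log2 ratio was -0.82, -1.54 and -1.53. Its neighbour fipr-22 followed the same order, with 42.4 and 43.4 CPM in replicates 2 and 5, 18.1 and 19.6 CPM in replicates 3 and 6 and 29.9 CPM in replicate 4. With serotonin fipr-22 measured 26.8, 16.7 and 10.8 CPM, and its log2 fold change of -0.76 ± 0.38 missed the threshold (adjusted p = 0.129) but passed with the replicate tag as a block (-0.89, adjusted p = 0.00693). The X-linked neighbours fipr-21 (-0.34 ± 0.24, adjusted p = 0.297) and fip-5 (-0.24 ± 0.17, adjusted p = 0.267) did not pass.

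**Figure D2:**
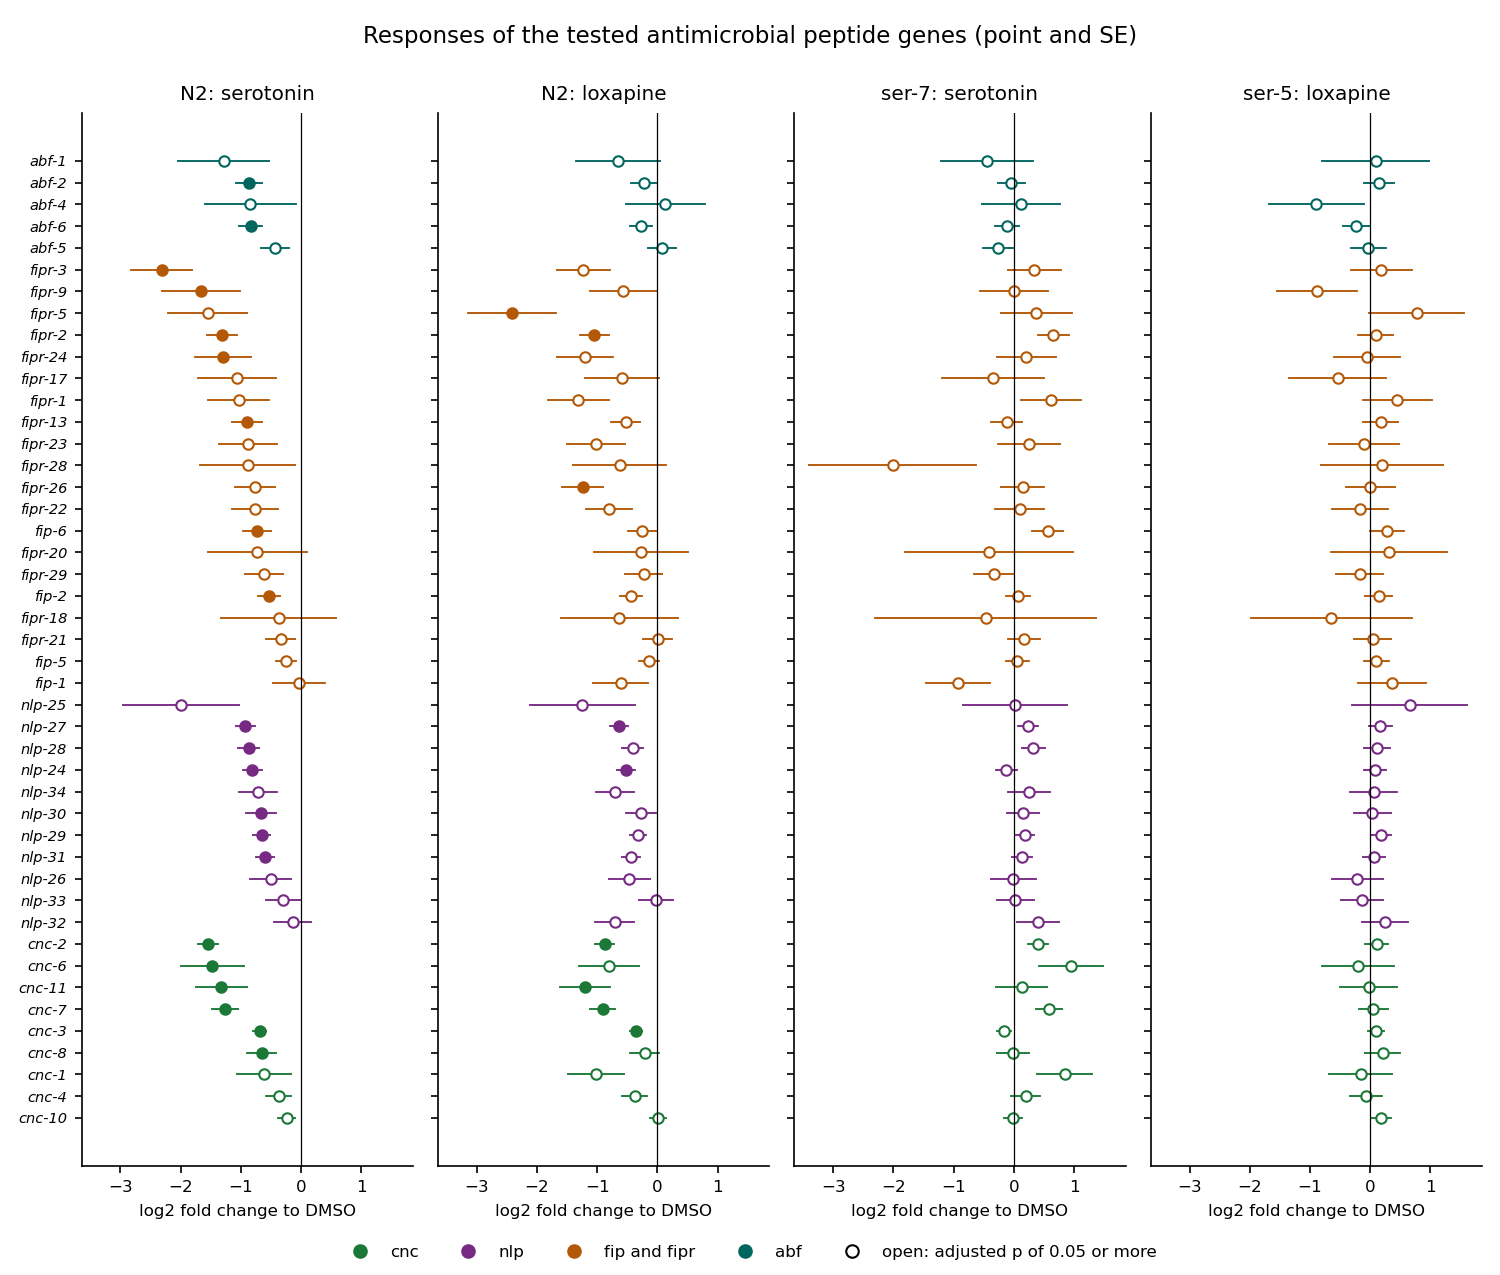
Log2 fold change to DMSO of the 45 tested members for each compound in N2 and in 1 mutant. Points are fitted values, lines are 1 SE to each side, colour gives the family, and filled points have an adjusted p under 0.05. In N2 all 45 points lie left of 0 with serotonin and 41 with loxapine, and no point is filled in the mutants.

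Loxapine lowered 9 of the 45 members in N2 and raised none, against 18.9% of all tested genes called, 8.38% lower and 10.5% higher. These were cnc-2, cnc-3, cnc-7 and cnc-11, nlp-24 and nlp-27, and fipr-2, fipr-5 and fipr-26, with no abf gene among them. The median log2 fold change of the members was -0.56, against -0.07 over all tested genes, and 41 of 45 were negative. Within the 3 series of library numbers the median was -0.86, -0.30 and -0.46, and 29 members were negative in every series. All 3 loxapine libraries lay below all 5 controls for 9 members and above them for none, where 12.6% of all tested genes lay wholly below and 15.7% wholly above. The count depended on the controls. It was 5 when the near-duplicate controls were summed, where 6.86% of all tested genes were called. It was 1 with only replicates 2 and 3 of N2 with DMSO (2.07% of all tested genes), and 22, among them all 9, with the series of library numbers as a block (32.1%). The call of cnc-2 held in all 16 alternatives, and that of cnc-11 was lost in 12.

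With loxapine cnc-2 measured 20.4, 32.6 and 26.7 CPM in replicates 1 to 3, between the serotonin libraries and the controls. Its log2 fold change was -0.87 ± 0.16 (adjusted p = 0.0025). For cnc-7 the 3 values were 17.4, 29.2 and 16.5 CPM, of which one lay within the range of the controls (-0.91 ± 0.20, adjusted p = 0.00704). The levels of cnc-3 were 24.5, 23.7 and 22.6 CPM, below all controls, with a log2 fold change of -0.36 ± 0.10 (adjusted p = 0.0226; 0.0799 with the replicate tag as a block).

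In the nlp-29 cluster, nlp-27 alone passed with loxapine, at 32.5, 35.1 and 29.8 CPM (-0.64 ± 0.15, adjusted p = 0.00919). For nlp-31 the 3 loxapine libraries, at 76.8, 76.8 and 72.2 CPM, lay below all controls, but the log2 fold change of -0.43 ± 0.15 just missed the threshold (adjusted p = 0.0503). For nlp-29 the loxapine libraries, at 73.4, 117 and 88.6 CPM, overlapped the controls (-0.33 ± 0.13, adjusted p = 0.0898). Within the series, the log2 ratio of nlp-29 was -0.89 in the first and -0.07 and -0.19 in the others. Outside the cluster nlp-24 passed (-0.52 ± 0.15, adjusted p = 0.0247), though not with the block (adjusted p = 0.055).

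The fip relatives called with loxapine were fipr-2 (-1.05 ± 0.25, adjusted p = 0.00833), fipr-26 (-1.24 ± 0.34, adjusted p = 0.0186) and fipr-5 (-2.41 ± 0.73, adjusted p = 0.0272). Counts of fipr-5 were at most 20 in a library, and with the block it did not pass (adjusted p = 0.0846). The fall of cnc-11 (-1.20 ± 0.41, adjusted p = 0.0473) did not pass with the block either (adjusted p = 0.0696). Conversely, fipr-22 and fipr-24 missed the threshold with loxapine and passed with the block (-0.95, adjusted p = 0.0114, and -1.32, adjusted p = 0.00954). The loxapine libraries of abf-2, at 8.54, 8.00 and 4.77 CPM, and of abf-6, at 6.08, 8.74 and 7.79 CPM, overlapped the controls.

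Serotonin and loxapine were compared with the same 5 N2 controls, so their 2 lists are not independent. Both compounds called 7 members, namely cnc-2, cnc-3, cnc-7, cnc-11, fipr-2, nlp-24 and nlp-27. Those 7 are 7 of the 21 called with serotonin and 7 of the 9 called with loxapine. Over all tested genes serotonin called 37.1% and loxapine 18.9%. The share of all tested genes called with both was not computed, so this overlap has no background and is not read as a trait of the members. When the serotonin and loxapine libraries of N2 were compared directly, no member differed past the threshold, against 1.5% of all tested genes (0.949% lower and 0.548% higher with serotonin). At an unadjusted p under 0.05 there were 6, against 3130 of the 16431 tested genes. DESeq2 called 1 member, against 3.66% of all genes in its fit. The log2 difference was negative, meaning lower with serotonin, for 35 of 45 members, with a median of -0.29. For cnc-2 it was -0.67 ± 0.18 (adjusted p = 0.056). With the replicate tag as a block 2 members were called lower with serotonin than with loxapine, against 5.45% of all tested genes in either direction.

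**Figure D3:**
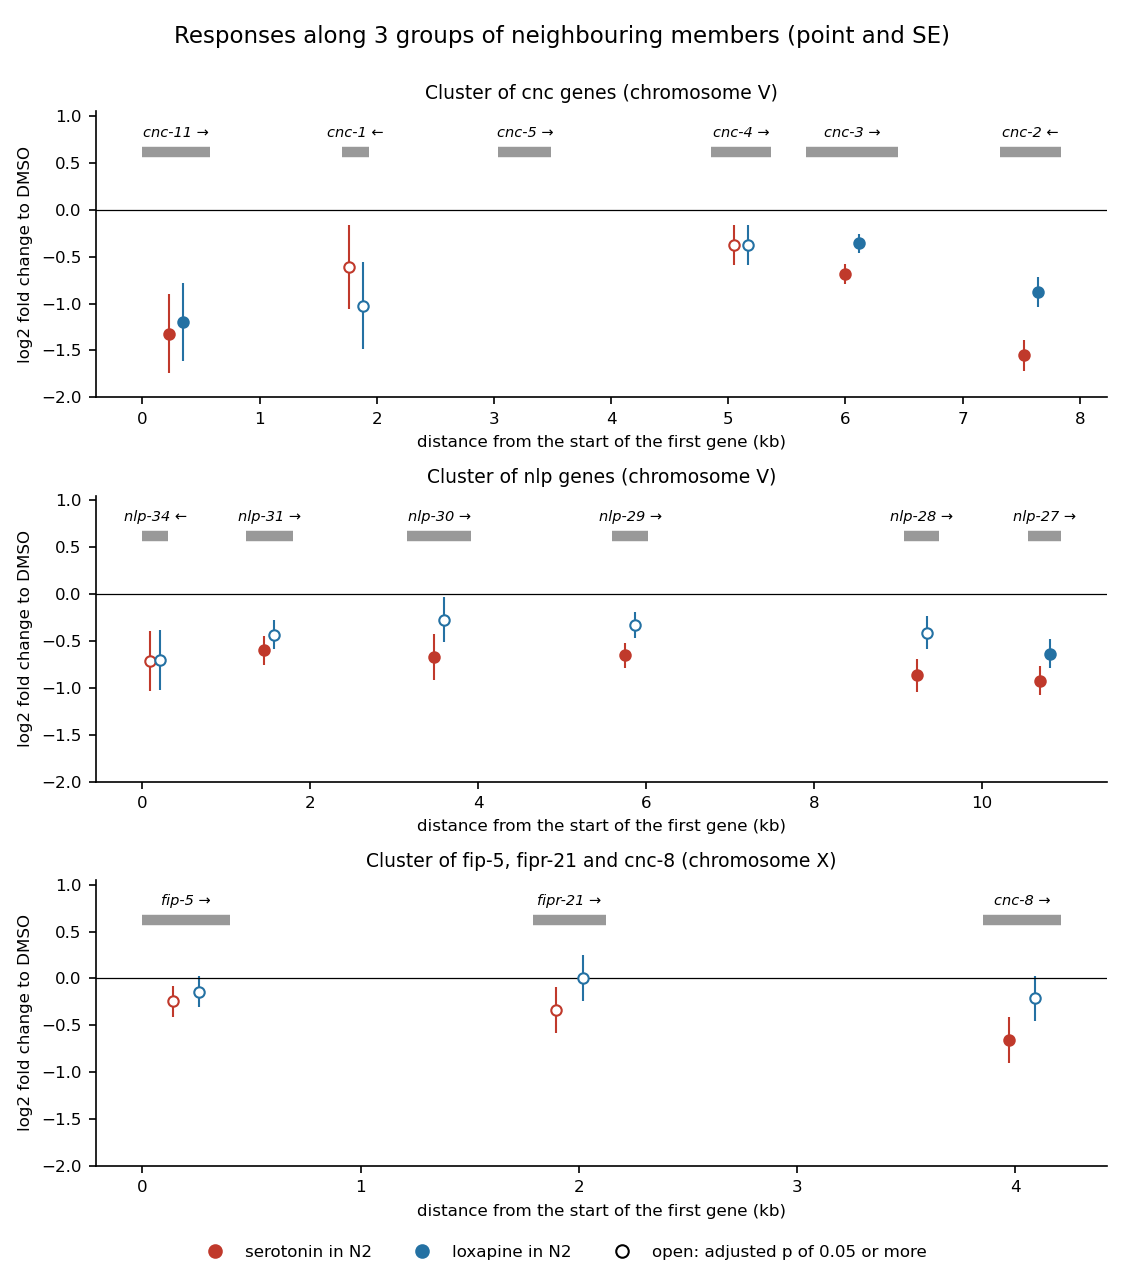
Log2 fold change to DMSO in N2 along 3 clusters of neighbouring members, by distance in kilobases from the start of the first gene. Grey bars are the genes with arrows for their strand, points are fitted values with 1 SE, and filled points have an adjusted p under 0.05. Within the cnc cluster, cnc-2 and cnc-11 at the ends fell with serotonin by 1.55 and 1.32 on the log2 scale, and cnc-4 between them had -0.37, which was not called.

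Fitted values of neighbours were set side by side along the clusters. In the cnc cluster the fitted serotonin values ran from -0.37 for cnc-4 to -1.55 for cnc-2, and cnc-5 was too low to be tested. In the nlp-29 cluster they lay closer together, between -0.60 for nlp-31 and -0.92 for nlp-27. In the mixed X-linked cluster cnc-8 passed with serotonin and its neighbours fip-5 and fipr-21 did not. Whether the values of neighbours differ from each other was not tested.

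In the ser-7 mutant, no member passed the threshold with serotonin, and neither did any other tested gene (0%). At an unadjusted p under 0.05 there were 4 members, against 643 of the 16431 tested genes. DESeq2 called no member and no other gene (0%). The fitted log2 fold change was positive for 29 of the 45 members, with a median of 0.12 against -0.01 over all tested genes, and within the 3 series the median was 0.07, -0.06 and 0.24. The serotonin libraries lay above all ser-7 controls for cnc-6, cnc-7, fipr-2, nlp-28 and nlp-29, and below them for fip-1, where 5.31% of all tested genes lay wholly above and 4.98% wholly below.

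The test of the difference between the strains' serotonin responses called 12 members, and in all 12 the response was higher in ser-7 than in N2. Over all tested genes 15.6% were called, 5.65% in that direction and 9.96% in the other. All 12 were among the 21 members called with serotonin in N2, a comparison that shares its libraries with this one. They were cnc-2, cnc-3, cnc-6 and cnc-7, nlp-24, nlp-27, nlp-28, nlp-29 and nlp-31, and fip-6, fipr-2 and fipr-3. The difference was positive for 42 of 45 members, with a median of 0.83 against 0.11 over all tested genes. The count was 7 without replicate 3 of N2 with serotonin (7.32% of all tested genes) or without replicate 3 of ser-7 with serotonin (10.5%). It was 11 with the near-duplicate controls summed (9.62% of all tested genes). It was 5 with only replicates 2 and 3 of N2 with DMSO (3.0%), and 22, among them all 12, with the library series as a block (25.2%). The calls of cnc-2, cnc-7, fipr-2, nlp-27 and nlp-28 held in all 22 alternatives run.

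The difference was clearest in cnc-2, which measured 48.8, 40.7 and 54.03 CPM in ser-7 with DMSO and 58.1, 50.3 and 81.3 CPM in ser-7 with serotonin. In ser-7, 2 of the 3 serotonin libraries exceeded all controls, and the log2 fold change in ser-7 was 0.40 ± 0.17. Against the fall in N2 the log2 difference was 1.95 ± 0.24 (adjusted p = 0.000377). For cnc-7 the ser-7 levels were 42.4, 39.3 and 44.8 CPM with DMSO and 57.1, 57.9 and 75.4 CPM with serotonin. The groups did not overlap, with a log2 fold change of 0.59 ± 0.22 in ser-7 and a difference of 1.85 ± 0.30 (adjusted p = 0.00284).

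In the nlp-29 cluster 4 genes were called, and nlp-29 itself was one of them. The level of nlp-29 in ser-7 was 109.8, 109 and 101 CPM with DMSO and 115, 116 and 135 CPM with serotonin. Its log2 fold change was 0.19 ± 0.15 there and the difference from N2 was 0.85 ± 0.20 (adjusted p = 0.0101). For nlp-28 the values were 27.0, 31.3 and 29.5 CPM against 35.3, 33.7 and 40.9 CPM, with a difference of 1.19 ± 0.26 (adjusted p = 0.00704). For nlp-27, at 46.1, 49.6 and 44.6 CPM against 53.8, 46.5 and 65.6 CPM, the groups overlapped and the difference was 1.16 ± 0.23 (adjusted p = 0.0053).

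Smaller differences were called for nlp-31 (0.74 ± 0.22, adjusted p = 0.0305), nlp-24 (0.68 ± 0.23, adjusted p = 0.0476) and cnc-3 (0.53 ± 0.16, adjusted p = 0.0263). These 3 did not pass with the replicate tag as a block (adjusted p = 0.0599, 0.0665 and 0.0558), nor did fip-6 (1.30 ± 0.35, adjusted p = 0.018; 0.0748 with the block). For cnc-3 and nlp-24 the fitted log2 fold change in ser-7 was itself negative, at -0.16 ± 0.12 and -0.13 ± 0.17. The difference was 1.97 ± 0.36 for fipr-2 (adjusted p = 0.00473), 2.65 ± 0.67 for fipr-3 (adjusted p = 0.0137) and 2.43 ± 0.75 for cnc-6 (adjusted p = 0.0355). The call of cnc-6 was lost in 10 of 22 alternatives, with adjusted p up to 0.101, and that of nlp-24 in 17 of 22. With the block, fipr-22, fipr-24, nlp-34 and abf-6 were called as well (adjusted p = 0.0276, 0.0116, 0.0499 and 0.0427).

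**Figure D4:**
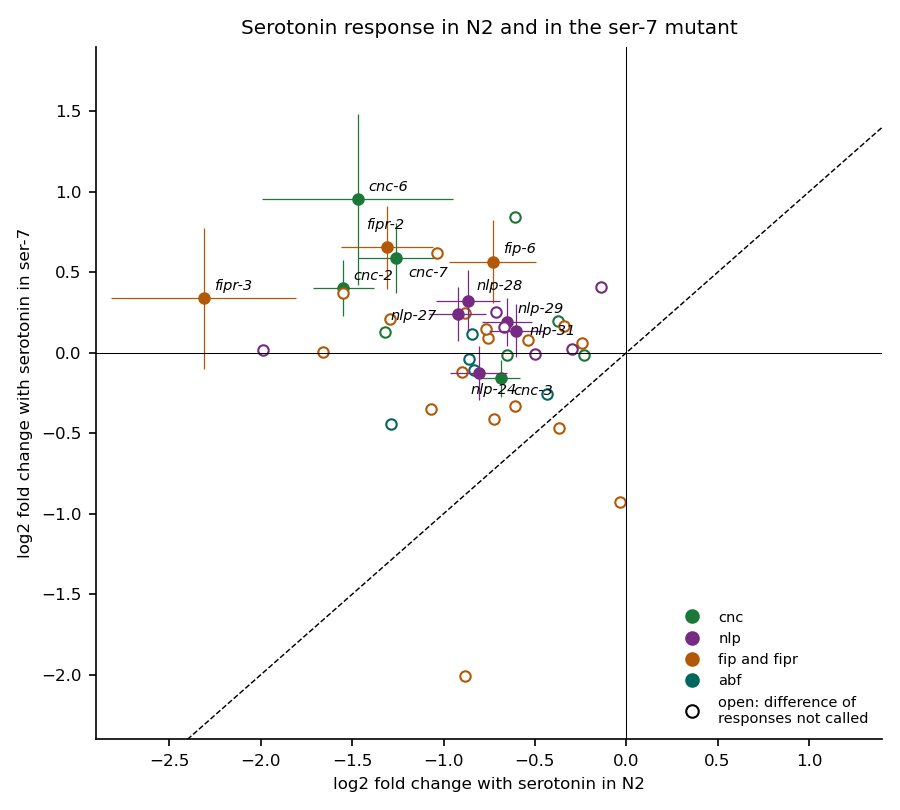
Log2 fold change with serotonin of the 45 tested members in N2 (x axis) and in the ser-7 mutant (y axis). Filled and named points are the 12 members whose responses differed between the strains, with 1 SE in each direction, and the dashed line marks equal responses. All 12 lie above the dashed line, and 42 of the 45 members do.

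In the ser-5 mutant, loxapine changed no member past the threshold, against 0.0487% of all tested genes. No member had an unadjusted p under 0.05, against 321 of the 16431 tested genes. DESeq2 called no member, against 0.0612% of all genes in its fit. The median log2 fold change was 0.08, and 29 of 45 members were positive. Both loxapine libraries lay above all 3 controls for cnc-10 and below them for no member, where 8.03% of all tested genes lay wholly above and 7.98% wholly below. In ser-5 cnc-2 measured 49.0, 43.8 and 59.9 CPM with DMSO and 50.8 and 59.0 CPM with loxapine, so that the groups overlapped (0.11 ± 0.19). For cnc-7 the values were 43.1, 49.4 and 41.6 CPM with DMSO and 37.8 and 54.9 CPM with loxapine (0.05 ± 0.25). The test of the difference between the loxapine responses of ser-5 and N2 called no member and no other gene (0%). DESeq2 called no member there, against 0.0969% of all genes in its fit. At an unadjusted p under 0.05 there were 12 members, against 1561 of the 16431 tested genes. The fitted difference was positive for 40 of 45, with a median of 0.58 against 0.03 over all tested genes. With the library series as a block 1 member was called, higher in ser-5, against 0.262% of all tested genes. For cnc-2 the fitted difference was 0.98 ± 0.25 (adjusted p = 0.399). The ser-5 group with loxapine held 2 libraries.

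Without a compound, no member passed the threshold between the strains. No member was called between ser-7 and N2 in DMSO, where 1.2% of all tested genes were called (0.755% lower and 0.444% higher in ser-7). An unadjusted p under 0.05 was found for 7 of the 45 members and for 2463 of the 16431 tested genes. Among the 7, fipr-28 had a log2 difference of -2.58 ± 0.90 (adjusted p = 0.177). In the first series, however, fipr-28 stood at 0.344 CPM in N2 and 0.324 CPM in ser-7. No member was called between ser-5 and N2 in DMSO, where 0.00609% of all tested genes were called. None had an unadjusted p under 0.05, against 888 of all tested genes. DESeq2 called no member in either comparison, against 2.59% and 0.0255% of all genes in its fit. With the library series as a block 1 member was called lower in ser-7, against 5.16% of all tested genes. The median log2 difference of the members was -0.02 for ser-7 and -0.04 for ser-5. For cnc-2 the fitted differences were -0.02 ± 0.15 and 0.06 ± 0.15, and for nlp-29 they were -0.13 ± 0.13 and -0.08 ± 0.13.

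The genes of the epidermal pathway that controls nlp-29 were in part also lower with both compounds in N2. Over all tested genes, 16.8% were lower with serotonin, with a median log2 fold change of -0.12. Of 17 pathway genes, 7 were lower with serotonin and none was higher, with a median log2 fold change of -0.36. They were the receptor gene dcar-1 (-0.59 ± 0.12, adjusted p = 0.000876), the G protein gene gpa-12 (-0.53), the phospholipase C genes egl-8 (-0.48) and plc-3 (-0.34), the protein kinase C gene tpa-1 (-0.45), sta-2 (-0.75 ± 0.19, adjusted p = 0.00343) and the GATA factor gene elt-3 (-0.34), with adjusted p between 0.000876 and 0.0221. The level of dcar-1 was 79.0 to 101 CPM in the 5 controls and 44.5 to 68.5 CPM in the 3 serotonin libraries, without overlap. For sta-2 it was 25.2 to 33.4 CPM against 11.6 to 19.7 CPM, again without overlap.

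The kinase module of the pathway gave no call with serotonin, with log2 fold changes of -0.36 for tir-1 (adjusted p = 0.0657), -0.10 for nsy-1 (0.529), -0.35 for sek-1 (0.0843) and -0.14 for pmk-1 (0.142). The transporter-like gene snf-12 (-0.40, adjusted p = 0.102) and the Tribbles-like kinase gene nipi-3 (-0.21, adjusted p = 0.456) were not called either. With loxapine 5 of the 17 were lower, against 8.38% of all tested genes. They were dcar-1 (-0.38), egl-8 (-0.45), tir-1 (-0.57), sek-1 (-0.64) and nipi-3 (-0.63), with adjusted p between 0.00969 and 0.0439. The list median was -0.35. The difference between ser-7 and N2 in the serotonin response was called for dcar-1 (0.57), tpa-1 (0.52) and egl-8 (0.89), each higher in ser-7 (adjusted p = 0.0362, 0.0208 and 0.00473). These were 17.6% of the list, against 5.65% of all tested genes in that direction. Among 7 genes of the BMP-like pathway, the ligand gene dbl-1 alone was lower with serotonin (-0.65 ± 0.21, adjusted p = 0.0186), at 3.85 to 6.23 CPM against 6.76 to 11.04 CPM. This was 14.3% of the list, near the 16.8% of all tested genes that were lower. The Smad gene sma-3 had -0.26 (adjusted p = 0.197), and loxapine called none of the 7, against 18.9% of all tested genes.

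Marker genes of other tissues moved in the same N2 libraries. Over all tested genes, 16.8% were lower and 20.4% higher with serotonin, and 8.38% were lower and 10.5% higher with loxapine. With serotonin, 9 of 10 body wall muscle markers (list median -0.86), 6 of 10 pharynx markers (-0.97) and 8 of 10 neuron markers (-0.55) were lower, while all 11 germline and oocyte markers were higher (0.87). The muscle markers summed to 3859 to 4629 CPM in the controls and 1978 to 2441 CPM with serotonin, and the pharynx markers to 278 to 367 CPM and 164 to 205 CPM. The summed germline and oocyte markers stood at 4453 to 5454 CPM in the controls, 6954 to 11333 CPM with serotonin and 6168 to 7305 CPM with loxapine. With loxapine 9 of 10 muscle markers, 5 of 10 neuron markers (list median -0.34) and 3 of 10 pharynx markers were lower, and 9 of 11 germline and oocyte markers were higher. Of 10 intestine markers 3 were lower and 1 was higher with serotonin, and none was called with loxapine.

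The epidermis, where most of the described cnc and nlp genes are expressed, showed a mixed picture. Of 12 epidermis markers, elt-3 (also a gene of the pathway list) and bli-1 were lower with serotonin and lin-26 was higher. The list median was -0.34. The lower markers were 16.7% of the list, near the 16.8% of all tested genes, and the higher one was 8.33%, against 20.4%. The summed epidermis markers were 1122 to 1340 CPM in the controls, 888 to 1258 CPM with serotonin and 692 to 1052 CPM with loxapine. The sums with serotonin overlapped the controls, and those with loxapine lay below them. As a mean log2 level relative to N2 with DMSO, neither compound overlapped the controls. On that scale the controls lay at -0.0424 to 0.0185, serotonin at -0.386 to -0.252 and loxapine at -0.684 to -0.293. With loxapine bli-1, bus-8 and dpy-13 were lower (25.0% of the list, against 8.38% of all tested genes). No marker of these lists was at 0 in any library, but bli-1 was near the floor in N2. Its level was 0.0882 to 0.352 CPM in the controls, 0.0256 to 0.0953 CPM with serotonin and 0.0262 to 0.0917 CPM with loxapine. In ser-7 serotonin called none of the markers, but no tested gene at all was called in that comparison (0%). The part of these tissue markers in the fall of the antimicrobial peptide genes was not tested.

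**Figure D5:**
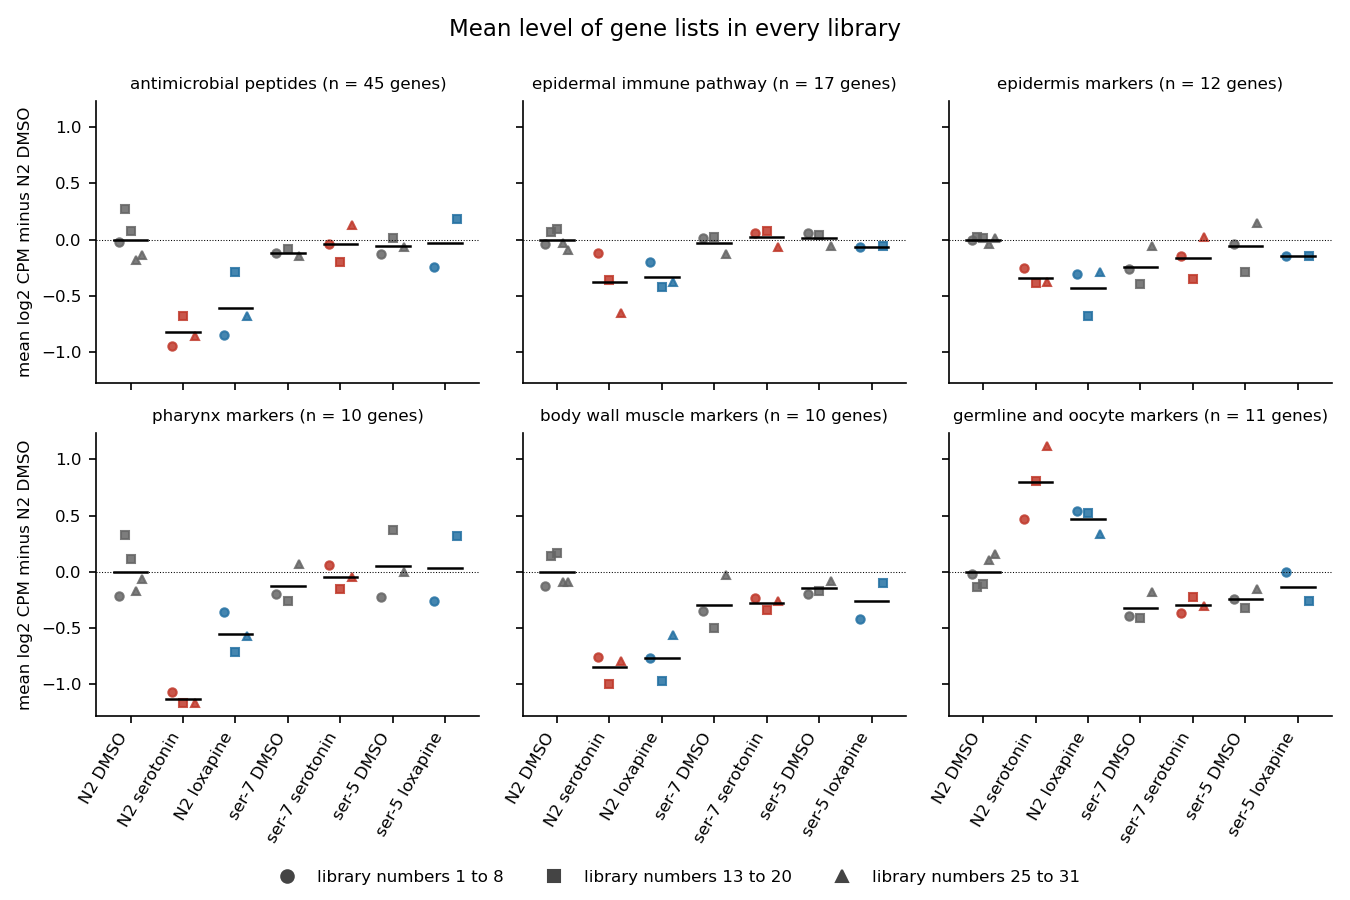
Mean log2 level of the tested members, of the epidermal immune pathway and of 4 marker lists in each library, as the difference to the mean of N2 with DMSO. Points are libraries, bars are group means, and the marker shape gives the series of library numbers. The antimicrobial peptide genes lie at -0.95 to -0.68 in N2 with serotonin, at -0.85 to -0.29 in N2 with loxapine and at -0.20 to 0.13 in ser-7 with serotonin.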

How the data were processed

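RNA was measured in whole adult worms by single-read sequencing of 100 nt (per the labels' protocols, 6 libraries shared a lane). The deposited values are whole-number counts per gene and library in 1 table of 19598 genes and 22 libraries. For the aligner, counter, genome build and strand setting, nothing is given in the sources used here. Gene symbols that a spreadsheet had turned into dates (11) were restored from the gene identifier, and 19578 symbols matched the gene name table.

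The counts were analysed with edgeR 4.0.16 in R 4.3.3 (TMM scaling; filterByExpr with a minimum count of 10 and a minimum total of 15; robust quasi-likelihood fit with 1 mean per group over all 22 libraries). P-values were adjusted by Benjamini-Hochberg over the 16431 genes that passed, with a threshold of 0.05. The SE is the absolute log2 fold change divided by the square root of F. A prior count of 2 was used for log2 levels per library and the values derived from them. The fitted fold changes used the default of edgeR. Strain differences in a compound's effect are interaction contrasts of the same fit. Alternatives were RLE scaling, DESeq2 1.42.0, no filter, the compared groups only, the replicate tag or the library series as a block, summed near-duplicate controls, a reduced set of controls, and leaving out each library in turn. The script was tested on simulated counts.

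In the labels a batch tag repeats the replicate number across groups, and this tag was used for the block. The tag also marks the library series, except for the extra N2 controls. Deviations from the group means of libraries with the same tag correlated with a median r of 0.230 (51 pairs, -0.0959 to 0.648), and 38 pairs were over 0.1. For pairs with other tags the median r was -0.0897, with 37 of 154 over 0.1. For pairs of the same library series it was 0.247, with 52 of 68 over 0.1. Under this block replicates 4 to 6 of N2 with DMSO carry no weight, since no other group has their tags.

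The 6 members of each family with the highest mean CPM were described by library, and others were named where they passed the threshold. The rule for members uses names only, but these families and the lists were selected with earlier results of these data known. Sequences were not used here.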

Additional observations from a re-analysis of the deposited data

Results flagged for a closer look

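In N2 with DMSO, abf-6 had 1 library far from the other 4, replicate 3 at 10.4 CPM. For abf-4 this was replicate 2 at 0.271 CPM, from only 10 counts against 3 to 5 in the other 4. Chance gives such a library in about 1 of 20 groups, and it occurred in 2 of the 23 members examined.

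The response to serotonin differed between ser-7 and N2 in 12 members, tested as an interaction (edgeR, adjusted over all tested genes). On the log2 scale the response in ser-7 was higher by 1.95 for cnc-2, 0.53 for cnc-3, 2.43 for cnc-6 and 1.85 for cnc-7. Among the nlp genes it was higher by 0.68 for nlp-24, 1.16 for nlp-27, 1.19 for nlp-28, 0.85 for nlp-29 and 0.74 for nlp-31. Among the fip and fipr genes the difference was 1.30 for fip-6, 1.97 for fipr-2 and 2.65 for fipr-3.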

How the results depend on the processing

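Percentages in this section are shares of all tested genes called in either direction under the same setting. The replicate tag as a block gives no weight to replicates 4 to 6 of N2 with DMSO. With it, 19 members were called with serotonin in N2 (16 shared with the 21), against 33.1%. Loxapine called 8 (5 shared with the 9), against 18.4%. The serotonin response of ser-7 against N2 called 14 (8 shared with the 12), against 16.1%, and serotonin against loxapine called 2, against 5.45%. With the library series as a block, serotonin in N2 called 29 (with all 21 among them), against 46.6%. Loxapine in N2 called 22 (32.1%), the ser-7 difference 22 (25.2%) and serotonin against loxapine 2 (7.87%). The comparison of ser-7 and N2 in DMSO called 1 (5.16%), and the ser-5 difference called 1 (0.262%). With only replicates 2 and 3 of N2 with DMSO, serotonin called 11 (21.4%), loxapine 1 (2.07%) and the ser-7 difference 5 (3.0%). With near-duplicates summed, serotonin called 15 (29.5%), loxapine 5 (6.86%) and the ser-7 difference 11 (9.62%). Both of these settings use fewer controls. DESeq2 and the fit without a filter each called 1 between serotonin and loxapine, against 3.66% and 1.43%. Leaving out 1 library gave 15 to 22 with serotonin in N2, 6 to 12 with loxapine, 7 to 15 in the ser-7 difference and 0 to 2 between the compounds, where 2 were called without replicate 1 of N2 with serotonin.

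No called member changed sign. Of 1530 alternative values for 86 member results, 27 did, all of uncalled members. With loxapine in N2 these were nlp-33 (0.0057 with RLE, 0.0065 with DESeq2, 0.41 with the replicate block, 0.23 with 2 controls, and -0.21 to 0.25 over the fits that leave out 1 library), cnc-10 (-0.020 without filter, -0.0089 with the series block, -0.043 with summed controls, and -0.064 to 0.10 on leaving out 1 library), fipr-21 (-0.022 without filter, and -0.25 to 0.25), abf-4 (-0.20 with the replicate block, -0.17 with 2 controls, and -1.18 to 0.60), fip-5 (0.023 with the replicate block) and abf-5 (-0.13 to 0.17). With serotonin nlp-33 was 0.18 and in the ser-7 difference -0.15 with the replicate block, and abf-5 was -0.075 to 0.58 in the latter on leaving out 1 library. The causes were not tested. Low counts of genes such as fipr-3, fipr-5 and fipr-9 limit their precision.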
